A study of Mus musculus with 6 samples.

Results

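The insulin-like growth factor (IGF) system was examined in a mouse cell line kept for 6 h in starvation medium. The genes were the ligands Igf1 and Igf2, the receptors Igf1r and Igf2r, and the binding proteins Igfbp2, Igfbp3, Igfbp4, Igfbp5, Igfbp6 and Igfbp7. They were chosen by name, and every probe set that the platform annotation assigns to 1 of them alone was kept, which gave 10 of 12393 named genes and 23 of 22626 tested probe sets. A probe set is a group of short oligonucleotides on the array that together report 1 transcript region. The series compared 3 Affymetrix arrays of the starved line with 3 control arrays of cells grown in normal medium, all hybridised with biotin-labelled cRNA from total RNA.

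Both groups are titled as the PPP3R1 cell line, named for the gene of the calcineurin regulatory B subunit. The growth and treatment fields instead describe the control as wild-type MEFs, the usual name for mouse embryonic fibroblasts, and the conflict could not be settled, so the groups are called control and starved. If the control cells were wild-type MEFs, the cell line and starvation cannot be told apart in any change given here. The labels used here state neither what was done to Ppp3r1 in the line nor whether it is a single clone. They also do not say what the starvation medium lacked. The titles call the samples biological replicates without saying that they came from separate cultures. The p-values here therefore rest on the spread within groups of 3 samples, which may be technical. Except where variance moderation was left out, the limma p-values also draw on the spread of all tested probe sets. With bulk RNA, fewer cells of a kind and less RNA per cell cannot be told apart.

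IGF1 and IGF2 are secreted growth factors that act through the tyrosine kinase receptor IGF1R, while IGF2R, which is also the cation-independent mannose 6-phosphate receptor, carries IGF2 and newly made hydrolases to the lysosome. The IGF binding proteins hold the ligands outside the cell and release them when proteases cut them. In fibroblasts, IGF1 made by the cells themselves supports growth, and IGFBP4 is the classical inhibitory binding protein whose cleavage by PAPP-A frees the ligand.

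After 6 h of starvation the ligand RNAs Igf1 and Igf2 were higher, the binding protein RNAs Igfbp4, Igfbp6 and Igfbp3 were lower, and Igfbp7 was higher. Each gene was represented by its brightest probe set over the 6 arrays. On that reading Igf1 rose 2.37-fold and Igfbp4 fell 2.16-fold, the changes of greatest size among the 10 genes in each direction. With limma and Benjamini-Hochberg adjustment over all tested probe sets, 3 of the 10 genes were higher, 3 were lower and 4 did not pass the adjusted threshold of 0.05. Across all genes 40.8% passed, 20.8% as higher and 20.1% as lower, so that 6 of 10 here is read against a background in which passing was common. The median absolute change was 0.48 on the log2 scale for the 10 genes and 0.16 for all genes, and the median signed change was -0.04 and -0.01. For 7 of the 10 genes the 3 starved arrays did not overlap the 3 control arrays, as was the case for 52.5% of all genes.

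**Figure D1:**
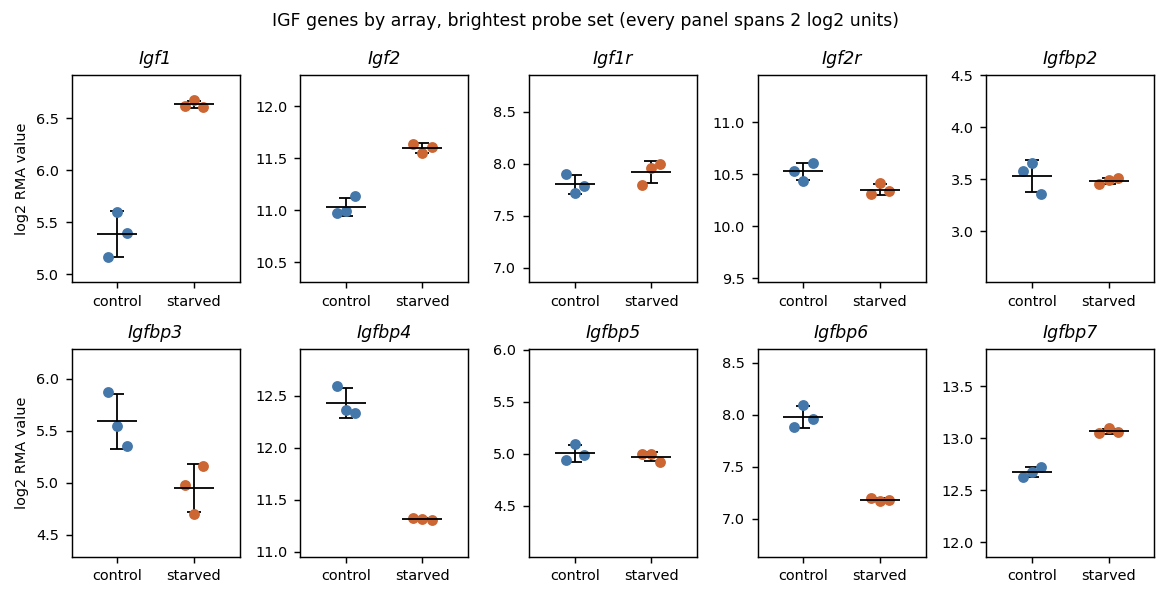
Deposited log2 level (vertical axis) of the brightest probe set of each of the 10 IGF genes in the 3 control and 3 starved arrays. Points are arrays, the line and bar are the mean ± SD, and every panel spans 2 log2 units but starts at its own level. The groups are apart for Igf1, Igf2 and Igfbp7 (starved above control) and for Igf2r, Igfbp3, Igfbp4, Igfbp6 (starved below control).

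Both ligands were higher in starved cells. The brightest Igf1 probe set (1452014_a_at) had log2 levels of 5.17, 5.60 and 5.40 in the control arrays. In the starved arrays it read 6.62, 6.68 and 6.61. Every starved array was above every control array, and the control arrays spread more widely (SD 0.22, n = 3) than the starved arrays (SD 0.04, n = 3). The change was 1.25 ± 0.10 (SE, log2), with a 95% interval of 1.00 to 1.49 and an adjusted p of 6.25e-05. Among all 12393 genes, 115 (0.928%) rose by at least as much.

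The other Igf1 probe sets also rose. Probe set 1437401_at read 4.95, 5.22 and 5.38 in control and 5.72, 5.51 and 5.76 in starved arrays, a change of 0.48 ± 0.12 (SE, log2) with an adjusted p of 0.0116. Probe set 1419519_at read 4.26, 3.84 and 4.11 in control and 4.90, 4.93 and 5.11 in starved arrays. Its change was 0.91 ± 0.11 (SE, log2) with a limma adjusted p of 0.000412, although both group means lay under a log2 level of 5, the level called dim here. The groups were apart in all 3 probe sets. The control means of 1452014_a_at (5.39) and 1437401_at (5.18) lay near the dim level of 5. RMA values are compressed towards background there, so the Igf1 folds and the gaps between probe sets describe the array signal. The response of 1452014_a_at exceeded that of 1437401_at by 0.76 ± 0.12 (SE, log2; 95% interval 0.49 to 1.04), as tested with limma on differences taken within each array. That difference had an adjusted p of 0.00327 over the 7987 pairs of probe sets of 1 gene, of which 16.4% differed, and it lost its call only without variance moderation (0.0611, in a range of 0.00123 to 0.0611 over the alternatives). The responses of 1452014_a_at and 1419519_at were not called different in the same test (difference 0.33, 95% interval -0.10 to 0.77, adjusted p = 0.2997). The suffix _a marks probe sets that can match several transcripts of a gene, and with 1437401_at as the representative the Igf1 change was 0.48, below the 0.57 of Igf2, so that Igf2 then had the greater rise.

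The promoter of Igf1 is shown because the gene had the greatest rise at its brightest probe set, and those of Igfbp4 and Igfbp6 because they had the greatest falls. Each sequence is the 250 bases before an annotated start in RefSeq on mouse build GRCm38.p6, 5′ to 3′ on the gene's strand. Igf1 lies at chr10:87860861-87861110 on the plus strand, Igfbp4 at chr11:99040994-99041243 on the plus strand and Igfbp6 at chr15:102143936-102144185 on the plus strand. Capitals mark a match to any of 6 motifs searched on both strands.
Igf1: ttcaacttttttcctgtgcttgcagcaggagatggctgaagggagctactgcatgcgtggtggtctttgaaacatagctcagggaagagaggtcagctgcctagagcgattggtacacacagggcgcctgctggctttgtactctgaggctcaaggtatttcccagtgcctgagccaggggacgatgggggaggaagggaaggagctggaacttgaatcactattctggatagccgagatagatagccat
Igfbp4: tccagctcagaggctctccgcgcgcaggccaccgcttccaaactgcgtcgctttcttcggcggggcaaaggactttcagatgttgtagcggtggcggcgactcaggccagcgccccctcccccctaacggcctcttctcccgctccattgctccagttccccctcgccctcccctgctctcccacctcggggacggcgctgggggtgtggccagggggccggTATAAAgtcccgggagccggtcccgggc
Igfbp6: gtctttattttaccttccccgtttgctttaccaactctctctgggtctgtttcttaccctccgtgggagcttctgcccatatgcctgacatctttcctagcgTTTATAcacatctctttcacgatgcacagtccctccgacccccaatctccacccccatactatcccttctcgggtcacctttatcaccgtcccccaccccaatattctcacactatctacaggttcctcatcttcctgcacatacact

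The Igfbp4 window holds TATAAA beginning 28 bases before the start. The Igfbp6 window holds the same motif only on the opposite strand, printed as TTTATA and beginning 148 bases before the start. TATAAA was present in 12.4% of 32851 RefSeq promoters of the same length. The Igf1 window had no match to any of the 6 motifs. The other motifs were GGGCGG (the GC box, in 32.7% of promoters), GTAAACA (a FoxO site, 3.17%), TGATGNAA (the core of the amino acid response element, 3.45%), CACGTG (an E-box, 6.02%) and ACGTG (the hypoxia response core, 16.6%, which also lies inside CACGTG). RefSeq gave 14 windows for the 10 genes, and none of them held GTAAACA or TGATGNAA. The Igf2r window held 3 GC boxes and 2 copies of CACGTG. The Igfbp7 window held 4 GC boxes and 1 copy of ACGTG, and the Igfbp3 window had no match. The base composition also differed, with 52.8% G and C before Igf1, 49.6% before Igfbp6, 69.2% before Igfbp4 and 74% before Igfbp7, against a median of 52.4% over all promoters. These matches describe letters in a window and are not evidence of binding.

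Igf2, the second ligand, encodes a fetal growth factor from an imprinted locus. Its brightest probe set (1448152_at) read 10.97, 11.00 and 11.14 in control and 11.64, 11.55 and 11.61 in starved arrays. The starved arrays were all above the control arrays, and the change was 0.57 ± 0.06 (SE, log2), a 1.48-fold rise with a 95% interval of 0.42 to 0.72 and a limma adjusted p of 0.000289. The dim probe set 1415931_at read 4.70, 4.66 and 4.52 in control and 4.99, 4.85 and 4.92 in starved arrays, a change of 0.29 ± 0.07 (SE, log2) with an adjusted p of 0.0114. All 5 probe sets of the 2 ligand genes therefore passed as higher. Of all 22626 probe sets, 4589 passed as higher, and 39.5% passed in either direction. The antisense transcript Igf2os changed by -0.10 ± 0.11 (SE, log2; adjusted p = 0.539), and whether the arrays read 1 strand of this locus was not tested.

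The receptors gave smaller differences. Igf1r, the signalling receptor, read 7.90, 7.72 and 7.79 in control and 7.80, 7.96 and 7.998 in starved arrays with probe set 1426565_at. The groups overlapped, and the difference was 0.12 ± 0.08 (SE, log2; 95% interval -0.06 to 0.29, limma adjusted p = 0.282). Its other probe set, 1452108_at, differed by -0.05 ± 0.06 (SE, log2; adjusted p = 0.508). That probe set had means of 5.07 in control and 5.01 in starved arrays, near the dim level of 5, where RMA values are compressed towards background. A rise above 0.29 or a fall beyond -0.06 lies outside the interval of the brighter probe set.

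Igf2r, which clears IGF2 and sorts lysosomal enzymes, was at the edge of the threshold. Its brightest probe set (1424112_at) read 10.53, 10.44 and 10.61 in control and 10.31, 10.42 and 10.34 in starved arrays. The groups did not overlap, but the highest starved and the lowest control array nearly met. The difference of -0.17 ± 0.06 (SE, log2) had a limma adjusted p of 0.0682, and over the alternatives the adjusted p ranged from 0.00757 to 0.171. It passed under 5 of 18 alternatives, among them the fit without control replicate 2 (0.0477) and centring on the array medians (0.0380). The second probe set, 1424111_at, read 9.38, 9.33 and 9.50 in control and 9.20, 9.07 and 8.92 in starved arrays and was lower, with a change of -0.34 ± 0.08 (SE, log2) and an adjusted p of 0.0132. The difference between the responses of the Igf2r probe sets did not pass in the pair test (difference 0.17, 95% interval -0.05 to 0.38, adjusted p = 0.284). Airn, the RNA transcribed antisense to Igf2r, changed by 0.27 ± 0.15 (SE, log2, limma adjusted p = 0.191). Strand overlap was not tested at this locus either.

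The binding proteins divided. Of the 6 genes, Igfbp7 was higher, Igfbp3, Igfbp4 and Igfbp6 were lower, and Igfbp2 and Igfbp5 did not pass, where 40.8% of all genes passed. Over their 14 probe sets, 2 were higher, 8 lower and 4 not called, where 39.5% of all probe sets passed in either direction. The median change of the 14 probe sets was -0.72 on the log2 scale, and Igfbp4 alone supplied 6 of them.

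Igfbp4, which inhibits IGF action until it is cut, read 12.59, 12.36 and 12.33 in the control arrays with its brightest probe set (1437405_a_at). It read 11.33, 11.31 and 11.31 in the starved arrays. The starved arrays were all lower and nearly equal to each other (SD 0.01, n = 3), while the control SD was 0.14 (n = 3). The change was -1.11 ± 0.08 (SE, log2), a 2.16-fold fall with a 95% interval of -1.29 to -0.93 and a limma adjusted p of 2.78e-05. Among all genes, 140 (1.13%) fell by at least as much. The other 5 probe sets changed by -1.05, -1.36, -1.20, -1.28 and -1.27, with group ranges apart in each and adjusted p-values from 4.56e-06 to 8.58e-05 over the 6. All 6 identifiers carry a suffix (_a, _s or _x) that allows a match to more than 1 transcript. Whether these probe sets share probes was not tested. In the pair test, the brightest probe set and 1423756_s_at differed in response by 0.25 (log2) with an adjusted p of 0.0528 (0.0277 to 0.167 over the alternatives).

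Igfbp6, which prefers IGF2 to IGF1, had a single probe set. It read 7.89, 8.10 and 7.96 in control and 7.20, 7.17 and 7.18 in starved arrays, with no overlap. The change was -0.80 ± 0.07 (SE, log2), a 1.74-fold fall, with a 95% interval of -0.95 to -0.64 and a limma adjusted p of 6.48e-05. As with Igfbp4 and Igf1, the starved arrays lay closer together (SD 0.01) than the control arrays (SD 0.11). The difference in spread was not tested.

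Igfbp3, the main carrier of IGF in serum, read 5.88, 5.55 and 5.35 in control arrays. It read 4.98, 4.70 and 5.16 in starved arrays. The groups were apart but both were scattered, with SDs of 0.27 and 0.23 (n = 3 each). The change was -0.65 ± 0.15 (SE, log2), a 1.56-fold fall with a 95% interval of -1.0025 to -0.29 and an adjusted p of 0.0114. The starved mean of 4.95 lay under the dim level of 5, where RMA values are compressed towards background, so the fold describes the array signal. The call was lost without variance moderation (adjusted p = 0.0857), the top of a range of 0.00104 to 0.0857 over the alternatives. Leaving out 1 array at a time gave changes from -0.76 to -0.50, all past the threshold.

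Igfbp7, a secreted protein of the family with low affinity for IGFs, was the binding protein that rose. Its brightest probe set (1423584_at) read 12.62, 12.68 and 12.72 in control and 13.05, 13.10 and 13.06 in starved arrays. All starved arrays were higher, by 0.40 ± 0.05 (SE, log2; 1.32-fold, 95% interval 0.27 to 0.52, limma adjusted p = 0.000747). In the pair test its brightest probe set differed in response from 1437804_at. The pair with 1423585_at did not pass (difference 0.10, adjusted p = 0.5365). Probe set 1423585_at rose by 0.30 ± 0.07 (SE, log2; adjusted p = 0.0104), whereas 1437804_at read 7.15, 7.22 and 7.08 in control and 6.95, 7.26 and 7.22 in starved arrays. The groups overlapped there, and the difference was -0.00 ± 0.09 (SE, log2; 95% interval -0.21 to 0.20, adjusted p = 0.973). The brightest set exceeded 1437804_at by 0.40 ± 0.10 (SE, log2), with a pair-test adjusted p of 0.0249. That call was lost without control replicate 1 (0.0838), control replicate 2 (0.0804) or starved replicate 1 (0.0689). It was also lost without variance moderation (0.113) and at a threshold of 0.01. The pair passed under 7 of 12 alternatives, in a range of 0.0126 to 0.113. The mean of the 3 probe sets rose by 0.23 on the log2 scale.

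Igfbp2 and Igfbp5 were read near the bottom of the scale. Igfbp2, a carrier of IGF2, read 3.58, 3.66 and 3.36 in control and 3.45, 3.49 and 3.51 in starved arrays (difference -0.05 ± 0.08, SE, log2; 95% interval -0.24 to 0.15; adjusted p = 0.718). Igfbp5, which also binds the extracellular matrix, read 4.94, 5.10 and 4.99 in control and 5.001, 4.996 and 4.93 in starved arrays. Its difference was -0.03 ± 0.06 (SE, log2; 95% interval -0.18 to 0.11, adjusted p = 0.733), and its second, dim probe set differed by -0.28 with an adjusted p of 0.0819. At such levels RMA values are compressed towards background, so these intervals bound the array signal rather than the RNA.

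**Figure D2:**
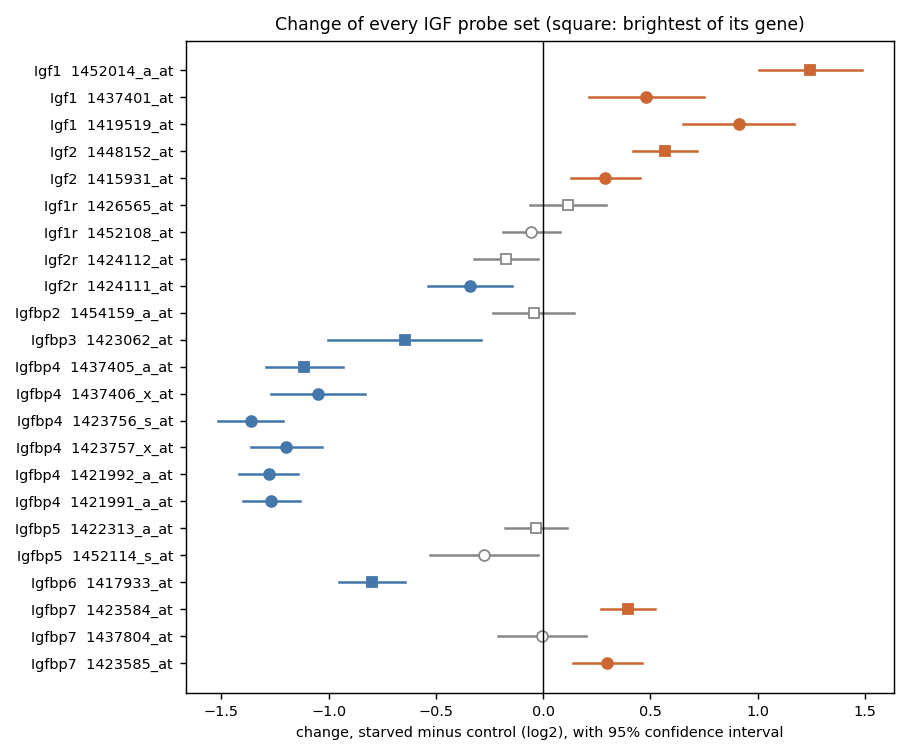
Change of each of the 23 probe sets of the 10 IGF genes, starved minus control on the log2 scale (horizontal axis), with 95% intervals as lines. Squares are the brightest probe set of a gene, filled symbols passed the adjusted threshold of 0.05 (orange higher, blue lower) and open grey symbols did not: 7 probe sets were higher, 9 lower and 7 not called.

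**Figure D3:**
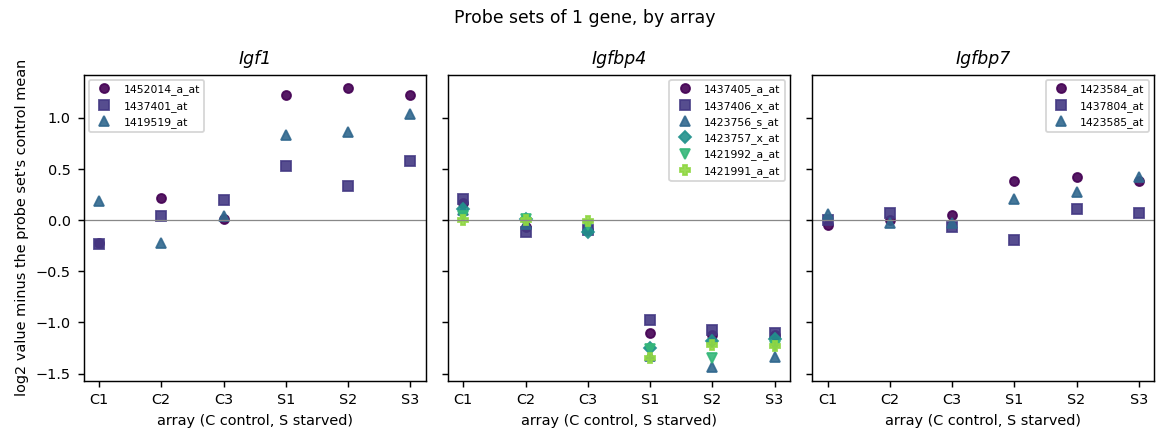
Log2 level of each probe set of Igf1, Igfbp4 and Igfbp7 in each array, minus that probe set's own control mean (vertical axis), over the 3 control (C1 to C3) and 3 starved (S1 to S3) arrays. Each probe set of a gene has its own marker and some points overlap. The 6 Igfbp4 probe sets fell together, whereas Igf1 rose by 0.48 to 1.25 and the Igfbp7 probe set 1437804_at had overlapping groups.

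The pairs of all 7 IGF genes with several probe sets gave 2 of 13 that differed, those of Igf1 and Igfbp7 described above. This share is near the 16.4% of all pairs.

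Genes around the IGF system, from its carriers to insulin signalling and mannose 6-phosphate sorting, were taken from 7 pathway lists with 104 entries. Of these entries, 84 were measured by a probe set of their own, and 22 were higher and 22 lower (median change -0.03). The shares over all genes, against which this count and those of the single lists are read, were 40.8% called, 20.8% higher and 20.1% lower. Of the 44 called genes, 30 had further probe sets, and 2 (Ptpn2 and Grb2) had another probe set called in the opposite direction. Among carriers, proteases and their inhibitors, 1 of 8 was higher and 2 were lower (median change -0.21). Pappa, the protease that cuts IGFBP4, read 6.27, 6.09 and 5.71 in control and 6.69, 6.76 and 6.95 in starved arrays. It rose by 0.78 ± 0.14 (SE, log2; 1.71-fold, limma adjusted p = 0.00304), with no overlap. Stc1, a secreted inhibitor of that protease, read 6.14, 6.44 and 5.94 in control and 5.61, 5.31 and 5.44 in starved arrays. It fell 1.64-fold, a change of -0.71 ± 0.13 (SE, log2; adjusted p = 0.00314), while a second, dim probe set differed by -0.15 and was not called, and the mean of both gave -0.43. Stc2, the related inhibitor, was dim in both groups (means of 4.65 in control and 4.85 in starved arrays) and differed by 0.19 (adjusted p = 0.0520). Adam9, a membrane protease able to cut IGFBPs, fell by 0.28 ± 0.06 (SE, log2; adjusted p = 0.00677). Igfbp1, a binding protein outside the 10 genes, was dim in both groups and differed by -0.10 (adjusted p = 0.400).

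Among 11 measured relatives that share the IGFBP domain, 2 were higher and 4 lower (median change -0.03). Htra3, a secreted serine protease, read 7.49, 7.52 and 7.42 in control and 5.88, 5.96 and 6.04 in starved arrays. It fell 2.86-fold, a change of -1.52 ± 0.06 (SE, log2; adjusted p = 3.41e-06), but its other probe sets fell less (-0.46 and -0.25, the latter not called), and their mean with it was -0.74. Crim1, a transmembrane protein, rose by 0.53 ± 0.10 (SE, log2; adjusted p = 0.00339) in its brightest probe set and differed by -0.13 in the other. The mean of the 2 did not pass (0.20, adjusted p = 0.110, in a range of 6.62e-05 to 0.110 over the alternatives). Ccn4, a matricellular protein, fell by 0.40 ± 0.08 (SE, log2; adjusted p = 0.00426).

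Among 10 measured regulators of ligand RNA, 3 were higher and 3 lower (median change -0.01). Socs2, which dampens growth hormone signalling, fell by 0.86 ± 0.06 (SE, log2; adjusted p = 3.86e-05). Plagl1, an imprinted zinc-finger factor, fell by 0.69 ± 0.07 (SE, log2; adjusted p = 0.000137), with a change of -1.11 in its second probe set. Stat5a, a mediator of growth hormone signalling, rose by 0.42 ± 0.08 (SE, log2; adjusted p = 0.00356). The other called genes were Ghr, the growth hormone receptor (0.31), Igf2bp1 (0.39) and Igf2bp3 (-0.42), whose proteins bind Igf2 mRNA. The second Igf2bp1 probe set was not called (0.15).

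Of 4 measured genes of insulin and its receptors, Insl6, an insulin-like peptide, rose by 0.39 ± 0.06 (SE, log2; adjusted p = 0.00147), and none was lower. Insr differed by 0.03 ± 0.06 (SE, log2; 95% interval -0.12 to 0.17) and its groups overlapped. Its means of 5.20 in control and 5.23 in starved arrays lay near the dim level of 5, so the interval bounds the array signal. A second, dim Insr probe set differed by 0.10 (limma adjusted p = 0.4455). Of 23 receptor adaptors and inhibitors, 7 were higher and 5 lower (median change 0.01). Gab1, a docking protein, rose 2.00-fold, a change of 1.00 ± 0.06 (SE, log2; limma adjusted p = 1.21e-05), with changes of 0.94 and 0.90 in its other probe sets. Grb14, an adaptor that inhibits the insulin receptor, rose by 0.93 ± 0.07 (SE, log2; adjusted p = 3.26e-05), and Arrb2, a beta-arrestin, by 0.73 ± 0.10 (SE, log2; adjusted p = 0.000585). The receptor substrates did not pass. Irs1 differed by 0.01 ± 0.07 (SE, log2; 95% interval -0.15 to 0.16), with the sign turning under array-median centring (-0.01) and a second quantile normalization (-0.01), and Irs2 differed by 0.04 ± 0.06 (SE, log2; 95% interval -0.10 to 0.19).

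Of 19 genes of PI3K, Akt and FoxO, 6 were higher and 3 lower (median change 0.01). Pik3r1, a regulatory subunit of PI3K, read 9.36, 9.42 and 9.57 in control and 8.38, 8.16 and 8.33 in starved arrays. It fell 2.23-fold, a change of -1.16 ± 0.08 (SE, log2; limma adjusted p = 3.04e-05), with changes of -0.95 and -0.58 in its other probe sets. Pdpk1, the kinase that activates Akt, rose by 0.43 ± 0.05 (SE, log2; adjusted p = 0.000404), and Tsc1, an inhibitor of mTORC1, by 0.34 ± 0.06 (SE, log2; adjusted p = 0.00246). The other genes that fell were Pik3r2 (-0.29) and Akt1 (-0.26), and the others that rose were Gsk3b (0.34), Rheb (0.28), Inpp4a (0.22) and Inppl1 (0.20). The second probe sets of Akt1 (-0.21) and Inpp4a (0.08) were not called.

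Of 9 genes of mannose 6-phosphate sorting, the lysosomal route that Igf2r serves, 2 were higher and 5 lower (median change -0.28). M6pr, the cation-dependent mannose 6-phosphate receptor, read 10.72, 10.67 and 10.70 in control and 10.30, 10.23 and 10.21 in starved arrays. It fell 1.37-fold, a change of -0.45 ± 0.05 (SE, log2; adjusted p = 0.000386), with a change of -0.38 in its second probe set. Gga2, a sorting adaptor, fell by 0.39 ± 0.06 (SE, log2; adjusted p = 0.00156). Gnptab, which makes the mannose 6-phosphate tag, fell by 0.39 ± 0.10 (SE, log2; adjusted p = 0.0183), a call lost without control replicate 2 (0.0531) or starved replicate 2 (0.0572), and with the probe set that matches a single transcript (-0.08), in a range of 0.00149 to 0.379. The remaining calls were Vps29 (-0.36) and Vps26a (-0.28), lower, and Gga1 (0.36) and Vps35 (0.23), higher. Of 3 other Vps29 probe sets, 1 was also called lower, and their changes ran from -0.29 to 0.13.

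**Figure D4:**
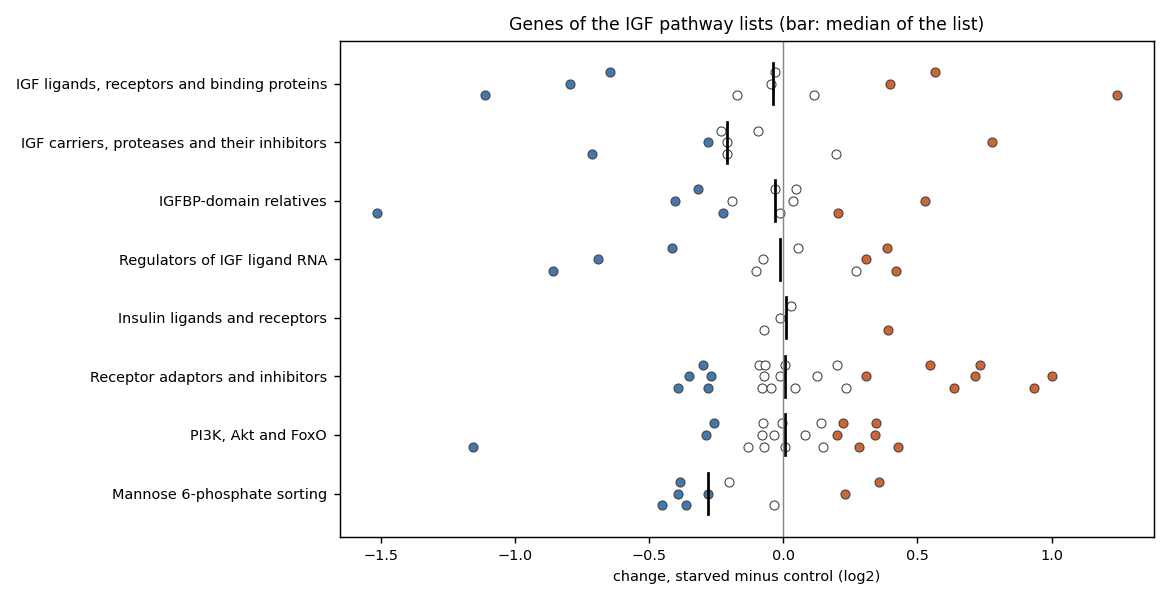
Change of the 10 IGF genes (top row) and of every measured gene of the 7 pathway lists, starved minus control on the log2 scale, 1 point per gene at its brightest probe set. Orange and blue points passed as higher and lower at an adjusted p of 0.05, white points did not, and the bar is the list's median, which ran from -0.28 for mannose 6-phosphate sorting to 0.01.

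The genes nearest to Igf1 over the 6 arrays, by the root mean square difference after each was centred on its own mean, were Hmgn5 (0.0407), Oga (0.0831), Ska1 (0.0879) and Cip2a (0.0918). Those nearest to Igfbp4 were Pdxp (0.0372), Capn6 (0.0440), Pcyt2 (0.0550) and Fam162a (0.0553). With 2 groups of 3 arrays, this measure finds mainly genes with a change of the same size.

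Facts of the arrays bear on all of these values. The median log2 level per array was 6.74 to 6.78, and values correlated at 0.998 between arrays of 1 group and at 0.986 to 0.988 between groups. Of 14 measured fibroblast markers, 13 had a mean above 5 (the exception was Thy1, 4.84), 4 were higher and 5 lower in starved cells, and their array mean was 11.71 to 11.73 in control and 11.59 to 11.61 in starved arrays. The median change of these markers was 0.10 on the log2 scale, opposite in sign to the shift of the mean, and Lum, a matrix proteoglycan named after its value was seen, changed by -2.05. Of 13 leukocyte, 10 epithelial and 9 endothelial markers, 8 in each list lay under 5, and 3, 1 and 1 of all markers in those lists were called. Array means ran from 4.77 to 4.90 in control and 4.80 to 4.86 in starved arrays for leukocyte markers, from 4.08 to 4.24 and 4.23 to 4.27 for epithelial, and from 3.998 to 4.12 and 3.97 to 4.22 for endothelial markers. Of 9 muscle, 9 neural and glial and 5 hepatocyte markers, 6, 4 and 3 lay under 5 and 0, 3 and 1 were called, with array means of 4.23 to 4.42, 5.11 to 5.24 and 4.92 to 5.04 in control and 4.32 to 4.41, 5.19 to 5.23 and 4.83 to 4.95 in starved arrays. The part of these markers in the IGF values was not tested. The signal at the 3′ end minus that at the 5′ end of Gapdh, a check of RNA integrity, differed by -0.08 between starved and control arrays (exact permutation p = 0.1, two-sided, the smallest that 3 against 3 allows), and that of Actb differed by -0.01 (exact permutation p = 0.7). Ppp3r1 itself read 9.97, 10.02 and 9.99 in control and 10.09, 10.07 and 10.08 in starved arrays, a difference of 0.09 ± 0.05 (SE, log2; limma adjusted p = 0.215). It passed without variance moderation (0.0208, in a range of 0.0208 to 0.898), and since both groups are titled with the same line name it does not test what was done to the gene.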

How the data were processed

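Total RNA of 6 samples was hybridised to 6 Affymetrix arrays. The authors deposited log2 values. Per the submitters' processing notes, RMA and affy were used; the sources used here give no versions. This method equalises the distributions of arrays, so a shift of all genes would be hidden. Of 22690 probe sets, none with a missing value, 64 control probe sets were left out. The platform annotation gave 20380 of the 22626 tested probe sets 1 gene, 691 several genes and 1555 none. Changes were fitted by lmFit and eBayes of limma 3.58.1 (R 4.3.3) as starved minus control, two-sided, with Benjamini-Hochberg adjustment and a threshold of 0.05. Pairs of probe sets of 1 gene were fitted on within-array differences. The first of these fits was tested on simulated data. Promoters came from RefSeq (GRCm38.p6).

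The members and lists were chosen with earlier results of these data known. Named are all 10 members, from each list up to 3 called genes with the largest absolute change, 7 fixed genes (1 is not reported here) and the 4 genes nearest to 2 members. Other genes were named after their values were seen. In all, 18 alternatives were run. The number of arrays limits the precision.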

Additional observations from a re-analysis of the deposited data

How the results depend on the processing

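Igf1, Igf2, Igfbp4 and Igfbp6 kept their direction and their call under every alternative run that left them a probe set, and 5 to 7 of the 10 genes passed under each of the 18. With several-transcript probe sets (suffixes _a, _s and _x) dropped, 9 IGF probe sets passed, 3 of them lower, and Igfbp2, Igfbp4 and Igfbp5 had none left. Without dim probe sets, Igfbp2 and Igfbp5 were not tested. At an adjusted p of 0.01, 4 IGF probe sets were higher, and with a minimum change of 0.5, 3 were. That minimum left 1788 of all genes (966 higher, 822 lower) and 13 pathway genes (8 higher, 5 lower). Pairs of probe sets that differed numbered 637 without moderation, 781 without several-transcript probe sets and 685 at 0.01. For the IGF genes they numbered 0, 1 and 1, and 1 to 3 with 1 array left out. With limma without moderation, 3 of 13 IGF pairs had an unadjusted p under 0.05. Uncalled differences changed sign when 1 array was left out: Igfbp2 (-0.1316 to 0.0178), Igfbp5 (-0.0667 to 0.012), Insr (-0.0193 to 0.0656) and Irs1 (-0.0318 to 0.0591). Irs1 was -0.0116 after array-median centring and -0.0136 after a second quantile normalization. The median of all genes was -0.01 in the main scaling and -0.03 after centring. The causes were not tested. Samples with the same replicate number did not deviate together (correlations of -0.09, 0.02 and -0.01), so the numbers were not taken as pairs. With the number as a replicate block, 6 IGF genes (3 higher, 3 lower), 16 IGF probe sets, 43 pathway genes and 4624 of all genes passed, 1122 pairs and 2 IGF pairs differed, and no call of an IGF gene changed.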

Other observations

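Genes next to the IGF genes in RefSeq were looked up by name, after the values of the IGF genes were known. Beside Igfbp4, which fell, the adjacent measured protein-coding gene Top2a, a DNA topoisomerase of dividing cells, rose from a mean log2 level of 10.50 to 11.74, by 1.24 ± 0.08 (SE, limma adjusted p = 2.27e-05). Beside Igfbp6, which also fell, Spryd3 rose by 0.67 ± 0.06 (SE, log2; adjusted p = 7.97e-05). Beside Igfbp7, which rose, Polr2b, a subunit of RNA polymerase II, fell by 0.23 ± 0.06 (SE, log2; adjusted p = 0.0127). Ins2 and Mrpl23, beside Igf2, differed by -0.07 (adjusted p = 0.502) and 0.02 (adjusted p = 0.846) and did not pass. Nor did Mas1 beside Igf2r (0.04), Rpl37a beside Igfbp2 (-0.09), Igfbp1 beside Igfbp3 (-0.10) or Tnp1 beside Igfbp5 (0.005) pass. Mas1, Igfbp1 and Tnp1 had control means of 3.11, 3.39 and 3.13, under the dim level of 5, and Ins2 (5.23) lay near it. RMA values are compressed towards background there, so these differences describe the array signal. Igfbp2 and Igfbp5 lie beside each other, and the remaining neighbours were not measured. Across all genes 40.8% passed. Whether neighbouring genes differ in direction more often than other genes was not tested.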
